A study of Homo sapiens with 2 samples.

Results

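The let-7 family was examined here through its 9 guide strands, hsa-let-7a-5p, hsa-let-7b-5p, hsa-let-7c-5p, hsa-let-7d-5p, hsa-let-7e-5p, hsa-let-7f-5p, hsa-let-7g-5p, hsa-let-7i-5p and hsa-miR-98-5p (written without the hsa prefix from here on), which were picked by name out of 2588 mature miRNA names in the deposited count tables. The names belong together by their seed. All 9 had counts in the control pulldown, and 8 of them, all but let-7c-5p, also had counts in the UCA1-MS2 pulldown. Among all names, 151 had counts in at least one of the libraries and 90 had counts in both.

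Both libraries came from derivatives of the triple-negative breast cancer line MDA231 (MDA-MB-231), grown in medium with 10% fetal bovine serum. In the UCA1-MS2 pulldown the cells (MDA231-UCA1-MS2) stably expressed the long noncoding RNA UCA1 carrying a run of MS2 hairpins, brought in by lentivirus, and the tagged RNA was captured for 5 h on amylose resin through MBP-MCP, a maltose-binding domain joined to the MS2 coat protein, and released with 20 mM maltose. In the control pulldown the same steps were applied to MDA231-Con cells. A supplement of the study calls this control MS2, and the sources used here do not describe the construct its cells carried. The comparison asks which miRNAs came down with UCA1, and with 1 small RNA library per condition no difference could be set against a spread between replicates.

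let-7 miRNAs are a large animal miRNA family that accumulates as cells differentiate. The guide strand is loaded into an Argonaute protein and pairs, mainly through its seed (bases 2 to 8), with target RNAs such as those of RAS genes, HMGA2, MYC and IGF2BP1, the gene of the IMP1 protein, and LIN28 proteins hold back the maturation of the precursors. Low let-7 levels are a known feature of many aggressive tumors, and miR-98 belongs to the family by its seed although its name does not show it.

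The mature sequences are shown because the members are told apart by single bases, which decides how reads can be assigned to them. They are the RefSeq sequences, matched by name for 9 of 9 members, 5′ to 3′, with the seed in capitals.
let-7a-5p: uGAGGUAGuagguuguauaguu
let-7f-5p: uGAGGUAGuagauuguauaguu
let-7c-5p: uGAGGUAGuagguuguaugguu
let-7e-5p: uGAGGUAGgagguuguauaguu
let-7b-5p: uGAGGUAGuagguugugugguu
let-7d-5p: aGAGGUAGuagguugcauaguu
miR-98-5p: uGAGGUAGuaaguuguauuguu
let-7g-5p: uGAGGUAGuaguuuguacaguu
let-7i-5p: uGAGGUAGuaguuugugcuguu

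All 9 have the same seed, GAGGUAG, and the same length of 22 bases, so that comparing their counts needs no correction for length. Effects of the other bases on ligation and amplification were not tested. Counted from 1 at the 5′ end, let-7f-5p differs from let-7a-5p by G12A, let-7c-5p by A19G and let-7e-5p by U9G. let-7b-5p differs from let-7a-5p by A17G and A19G, of which the second is also found in let-7c-5p. Chains of 1 substitution therefore link let-7a-5p, let-7b-5p, let-7c-5p, let-7e-5p and let-7f-5p, whereas let-7d-5p (U1A and U16C), miR-98-5p (G11A and A19U), let-7g-5p (G12U and U18C) and let-7i-5p (G12U, A17G, U18C and A19U) are at least 2 substitutions from every other member. let-7g-5p and let-7i-5p share 2 of their substitutions from let-7a-5p and differ from each other by A17G and A19U. The other mature miRNAs with this seed, miR-4458 and miR-4500, were listed at 0 in both libraries.

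The 9 guide strands are made from 12 hairpins (RefSeq, GRCh38.p14; gene overlaps from GENCODE release 29 on GRCh38). On the plus strand of chromosome 9, MIRLET7A1 (94175957 to 94176036), MIRLET7F1 (94176347 to 94176433) and MIRLET7D (94178834 to 94178920) lie in an intron of the lincRNA gene AL158152.2. On the minus strand of chromosome X, MIR98 (53556223 to 53556341) and MIRLET7F2 (53557192 to 53557274) lie in an intron of HUWE1, which encodes a ubiquitin ligase. On the plus strand of chromosome 22, MIRLET7A3 (46112749 to 46112822) and MIRLET7B (46113686 to 46113768) overlap an exon of MIRLET7BHG. MIRLET7A2 lies in an intron of MIR100HG on the minus strand of chromosome 11 (122146522 to 122146593), the host gene of miR-100 and miR-125b. MIRLET7C lies in an intron of MIR99AHG on the plus strand of chromosome 21 (16539828 to 16539911), and MIRLET7E in an intron of SPACA6 on the plus strand of chromosome 19 (51692786 to 51692864). MIRLET7G is in an intron of WDR82 on the minus strand of chromosome 3 (52268278 to 52268361), and MIRLET7I is in an intron of the lincRNA gene AC048341.1 on the plus strand of chromosome 12 (62603686 to 62603769). Counts of let-7a-5p and let-7f-5p cannot be divided among their 3 and 2 hairpins.

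Summed miRNA counts were 20037 in the library of the UCA1-MS2 pulldown and 72579 in that of the control, which were 0.162% and 0.562% of the library totals by which the authors' RPM values divide the counts. The totals were worked out from counts and RPM, and which reads they include is not given in the sources used here. No count from 1 to 9 was listed in either library, so a listed 0 allows up to 9 counts, or 0.0449% of the miRNA counts for UCA1-MS2 and 0.0124% for the control. Of the miRNAs typical of MDA-MB-231, all 5 searched for (miR-21-5p, miR-100-5p, miR-221-3p, miR-222-3p and miR-125b-5p) had counts in both libraries and made up 31.5% of the miRNA counts for UCA1-MS2 and 45.8% for the control. They did not move together, since the share of miR-100-5p with UCA1-MS2 was 0.163 times that of the control and miR-222-3p and miR-125b-5p were also lower with UCA1-MS2, whereas miR-21-5p took 24.0% and 15.1% and miR-221-3p 2.21% and 0.529%. miR-7641, of no marker list, took 19.9% of the miRNA counts for UCA1-MS2 (3989 counts) and 0.424% for the control (308 counts). Epithelial miRNAs (2 of 6 listed, miR-200a-3p and miR-200b-3p) summed to 0.564% and 0.0289%, liver miRNAs (1 of 2, miR-122-5p) to 2.44% and 0%, erythroid miRNAs (1 of 3, miR-486-5p) to 0.105% and 0.0744%, and muscle miRNAs (1 of 3, miR-1-3p) to 0.0499% and 0%. The defining miR-200c-3p, miR-141-3p, miR-451a and miR-133a-3p and the 3 leukocyte miRNAs were listed at 0 in both libraries. The part of these differences in the let-7 values was not tested.

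As a family, let-7 was abundant in both pulldowns and took a smaller share of the miRNA counts in the UCA1-MS2 pulldown. The 9 members summed to 2708 counts there, 13.5% of the miRNA counts (95% exact binomial interval 13.0 to 14.0%), and to 13727 counts in the control pulldown, 18.9% (18.6 to 19.2%). The family share was thus 0.715 times that of the control pulldown (interval 0.685 to 0.745), a log2 ratio of -0.48. In RPM, the family summed to 218.3 with UCA1-MS2 and to 1063 in the control, a ratio of 0.205 (0.197 to 0.214). With miR-7641 left out of the miRNA totals, an alternative chosen after seeing the data, the family ratio was 0.888 (0.852 to 0.926). Family levels were lower in the UCA1-MS2 pulldown each time, and the size of the difference depended on the scale. Intervals here and throughout cover counting error only and compare these libraries, not the conditions.

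In the control pulldown, let-7f-5p and let-7a-5p were the most counted members. let-7f-5p had 4729 counts (6.52% of the miRNA counts) and let-7a-5p had 4603 (6.34%), and their ratio of 1.03 did not differ from 1 beyond counting error (0.986 to 1.07). let-7i-5p followed with 3171 counts (4.37%), let-7g-5p with 595 (0.820%) and let-7b-5p with 336 (0.463%). Each of these steps down was larger than counting error. miR-98-5p with 108 counts, let-7e-5p with 95 and let-7d-5p with 74 formed a low group in which neighbours in the order did not differ beyond counting error but miR-98-5p was 1.46 times let-7d-5p (1.08 to 1.99), and let-7c-5p was lowest with 16 counts (0.0220%).

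In the UCA1-MS2 pulldown the order was different at the top. let-7i-5p was the most counted member with 1183 counts (5.90% of the miRNA counts), 1.87 times the 634 counts (3.16%) of let-7f-5p (interval 1.69 to 2.06). Among all miRNAs, let-7i-5p ranked 3 in this library and 6 in the control pulldown, whereas let-7f-5p moved from rank 3 in the control pulldown to rank 6. let-7a-5p had 533 counts (2.66%) and let-7g-5p 250 (1.25%), and these members still differed from their neighbours beyond counting error. let-7b-5p with 37 counts, let-7d-5p with 28, miR-98-5p with 24 and let-7e-5p with 19 followed, and every interval between neighbours held 1. From end to end of these members the difference exceeded counting error, with 1.95 times as many counts of let-7b-5p as of let-7e-5p (1.09 to 3.58). let-7c-5p was listed at 0, and the limit of 0.0449% lies above its share in the control pulldown, so a difference in let-7c-5p was not detectable at this depth.

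**Figure D1:**
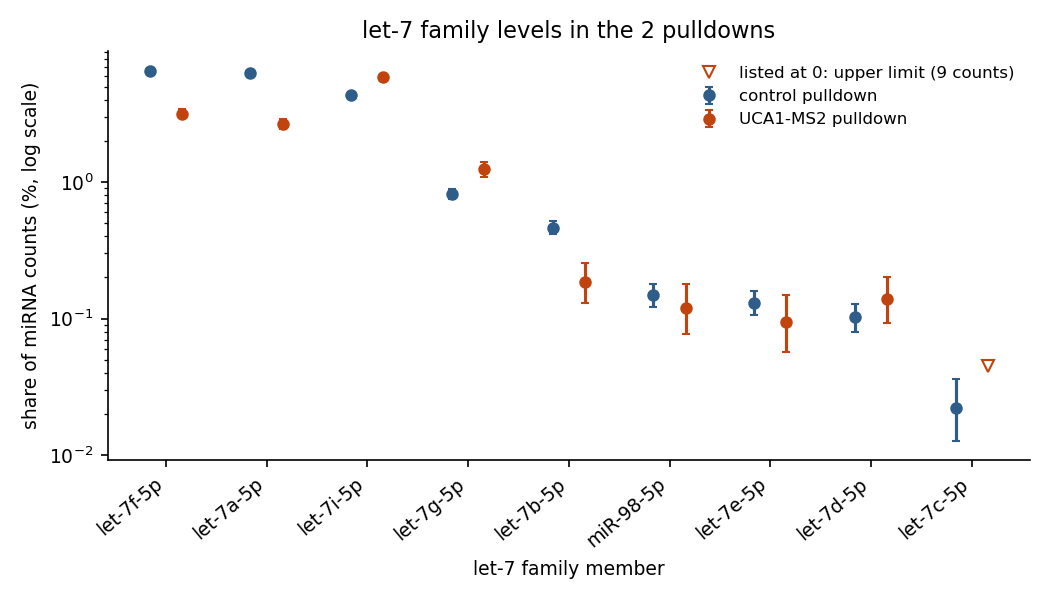
Share of the miRNA counts (percent, log scale) of each let-7 family member in the control pulldown (blue) and the UCA1-MS2 pulldown (orange), with 95% exact binomial intervals and 1 library per condition; the open triangle is the limit for a listed 0. let-7f-5p, let-7a-5p and let-7b-5p sit lower in the UCA1-MS2 pulldown, let-7i-5p and let-7g-5p sit higher, and the intervals of miR-98-5p, let-7e-5p and let-7d-5p overlap.

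The make-up of the family differed between the pulldowns, a comparison that does not depend on how the libraries were scaled. let-7i-5p made up 43.7% of the family in the UCA1-MS2 pulldown (41.8 to 45.6%) and 23.1% in the control pulldown (22.4 to 23.8%). let-7g-5p made up 9.23% (8.17 to 10.4%) against 4.33% (4.00 to 4.69%). let-7a-5p made up 19.7% (18.2 to 21.2%) against 33.5% (32.7 to 34.3%), and let-7f-5p 23.4% (21.8 to 25.1%) against 34.5% (33.7 to 35.3%). Together let-7i-5p and let-7g-5p were 52.9% of the family with UCA1-MS2 and 27.4% in the control, and let-7a-5p and let-7f-5p were 43.1% and 68.0%.

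The less counted members fell on either side. let-7d-5p was 1.03% of the family with UCA1-MS2 and 0.539% in the control, an odds ratio of 1.93 against the other members (exact conditional interval 1.20 to 3.02). let-7b-5p was 1.37% and 2.45%, an odds ratio of 0.552 (0.381 to 0.779). For let-7e-5p the odds ratio was 1.01 (0.584 to 1.68) and for miR-98-5p 1.13 (0.691 to 1.77), and both intervals held 1 at 19 and 24 counts in the UCA1-MS2 pulldown. The share of the family was higher beyond counting error for 3 members (let-7d-5p, let-7g-5p and let-7i-5p) and lower for 3 (let-7a-5p, let-7b-5p and let-7f-5p). Differences of this kind were not particular to let-7. Among the 4005 pairs of miRNAs with counts in both libraries, 67.5% changed in their ratio beyond counting error. When the 5 members linked by single substitutions were counted together, they made up 45.2% of the family with UCA1-MS2 and 71.2% in the control, so the difference does not rest on how reads were split among them. Since shares sum to the whole, a higher share of let-7i-5p lowers the others. Without let-7i-5p in the total, let-7a-5p (odds ratio 0.695, 0.620 to 0.778) and let-7f-5p (0.877, 0.785 to 0.979) were still lower, and let-7b-5p (0.756, 0.521 to 1.07) was no longer lower beyond counting error.

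**Figure D2:**
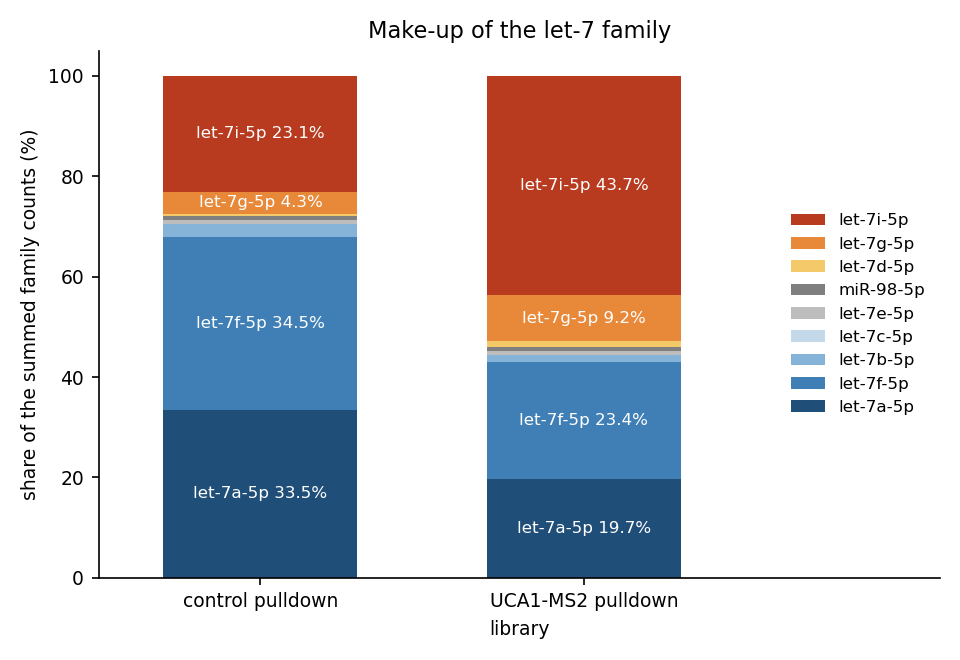
Share of each member in the summed counts of the let-7 family (percent, stacked from 0) in the control pulldown and the UCA1-MS2 pulldown, 1 library each. let-7a-5p and let-7f-5p, in dark and mid blue, make up 68.0% of the control bar and 43.1% of the UCA1-MS2 bar, and let-7i-5p, in red, makes up 23.1% and 43.7%.

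Relative to the miRNA counts, let-7b-5p, let-7a-5p and let-7f-5p were lower in the UCA1-MS2 pulldown by at least 2-fold. The share of let-7b-5p was 0.399 times that of the control pulldown (0.276 to 0.561), that of let-7a-5p 0.419 times (0.383 to 0.459) and that of let-7f-5p 0.486 times (0.446 to 0.528). The interval of let-7b-5p and that of let-7f-5p reach beyond the 2-fold line of 0.5, and that of let-7a-5p does not. Thus 3 of 9 members were at least 2-fold lower, against 12.6% of the 151 miRNAs with counts, and 0 of 9 were at least 2-fold higher, against 27.8%. A miRNA listed at 0 in either library can be called only as higher in the other, which skews both shares. With a 0 in the control even 10 counts, the lowest listed, pass 2-fold (miR-1-3p, at least 4.02 times as high). With a 0 for UCA1-MS2 more control counts are needed. The 115 of miR-7977 were enough (at most 0.283 times) and the 57 of miR-584-5p were not (at most 0.572 times). Among the 86 miRNAs with at least 50 counts over both libraries, 19 were at least 2-fold lower and 24 higher. Of the 8 members among them, 3 were lower and 0 higher. The count of lower members turned on miR-7641. Without it in the totals only let-7b-5p stayed at least 2-fold lower, with a ratio of 0.496 (0.343 to 0.698), and let-7a-5p (0.521, 0.476 to 0.571) and let-7f-5p (0.604, 0.555 to 0.656) were lower by less.

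let-7g-5p and let-7i-5p went the other way on this scale. let-7g-5p was 1.52 times as high in the UCA1-MS2 pulldown (1.31 to 1.77) and let-7i-5p 1.35 times (1.26 to 1.45), both short of 2-fold. Their log2 ratios of 0.61 and 0.43 depended on the scale. They were 0.22 and 0.05 with DESeq2 size factors and 0.92 and 0.75 without miR-7641 in the totals. let-7d-5p had a ratio of 1.37, with an interval of 0.854 to 2.14 that held 1, and without miR-7641 in the totals one of 1.70 (1.06 to 2.66). miR-98-5p had a ratio of 0.805 (0.494 to 1.26) and let-7e-5p one of 0.724 (0.418 to 1.19), and a difference was not detectable for either at this depth. let-7c-5p could have been at most 2.04 times as high as in the control pulldown, which sets no direction.

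In the deposited RPM, every member with counts in both libraries was lower in the UCA1-MS2 pulldown. let-7i-5p had 95.4 RPM there and 245.6 RPM in the control pulldown, a ratio of 0.388 (0.363 to 0.415). let-7g-5p had 20.2 and 46.1 RPM, a ratio of 0.437 (0.376 to 0.508). let-7f-5p had 51.1 and 366.2 RPM, a ratio of 0.140, and let-7a-5p had 43.0 and 356.5 RPM, a ratio of 0.121. The members that were higher relative to the miRNA counts were those least reduced in RPM. This holds by construction, since the scales differ by a factor common to all miRNAs.

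For the others, the RPM values were 2.98 and 26.0 for let-7b-5p (ratio 0.115), 2.26 and 5.73 for let-7d-5p (0.394), 1.93 and 8.36 for miR-98-5p (0.231) and 1.53 and 7.36 for let-7e-5p (0.208). let-7c-5p had 1.24 RPM in the control pulldown and, at a limit of 0.725 RPM in the UCA1-MS2 pulldown, was at most 0.585 times as high. This limit carries no counting error, and no direction is read from it. On this scale 8 of 9 members were at least 2-fold lower, against 57.0% of the 151 miRNAs, and 0 of 9 were at least 2-fold higher, against 7.28%. The 151 again include miRNAs listed at 0 in 1 library, which can be called in 1 direction only. The change of scale moved every log2 ratio by -1.80, because the control pulldown had 3.62 times as many miRNA counts at nearly equal library totals. With 1 library per condition, fewer miRNA molecules in the pulldown and more reads from other RNA cannot be told apart.

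**Figure D3:**
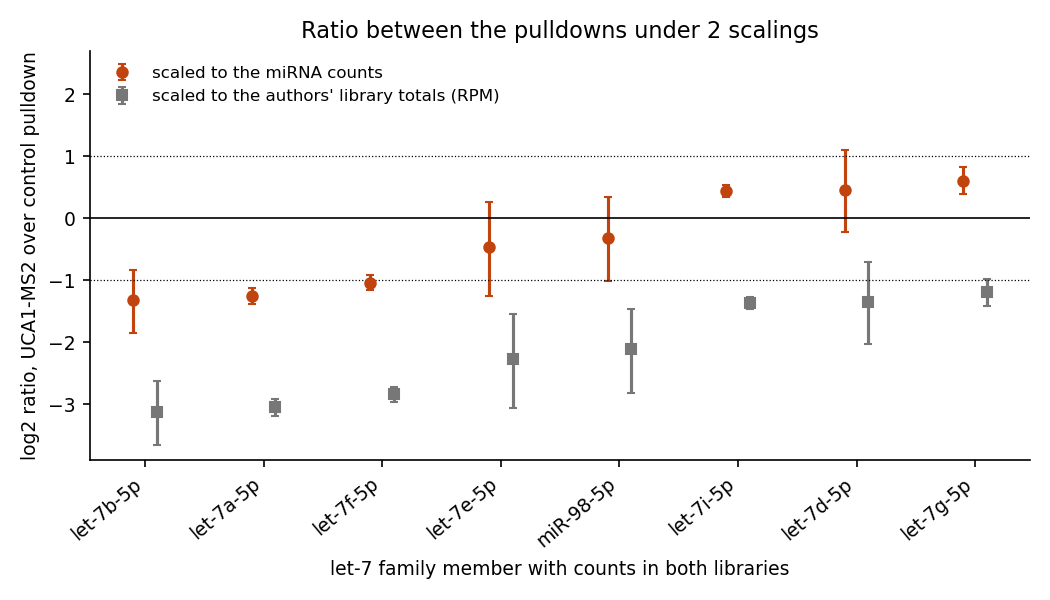
Log2 ratio (UCA1-MS2 over control) for the 8 members with counts in both libraries, scaled to the miRNA counts (orange circles) or to the authors' library totals (grey squares), with 95% exact intervals for counting error; dotted lines mark 2-fold. On the first scale the values run from -1.33 for let-7b-5p to 0.61 for let-7g-5p, and on the second all 8 lie below 0, in the same order.

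Ratios between members are free of the scale. let-7g-5p was favored over let-7a-5p in the UCA1-MS2 pulldown by a factor of 3.63 (interval 3.04 to 4.33) and over let-7f-5p by 3.13 (2.63 to 3.72). let-7i-5p was favored over let-7a-5p by 3.22 (2.88 to 3.61) and over let-7f-5p by 2.78 (2.50 to 3.10). Between let-7g-5p and let-7i-5p the factor was 1.13 (0.954 to 1.33), and between let-7a-5p and let-7b-5p it was 1.05 (0.737 to 1.54), so neither pair differed beyond counting error. For let-7a-5p over let-7f-5p, the most deeply counted pair, the factor was 0.864, close to 1 but still resolved by the counts (0.763 to 0.978). Of the 28 pairs among the 8 members, 17 had an interval without 1, against 67.5% of the 4005 pairs among the 90 miRNAs with counts in both libraries. A factor of at least 2 was found for 11 of the 28 pairs, against 66.3% of all pairs, and pairs share members and are not independent.

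**Figure D4:**
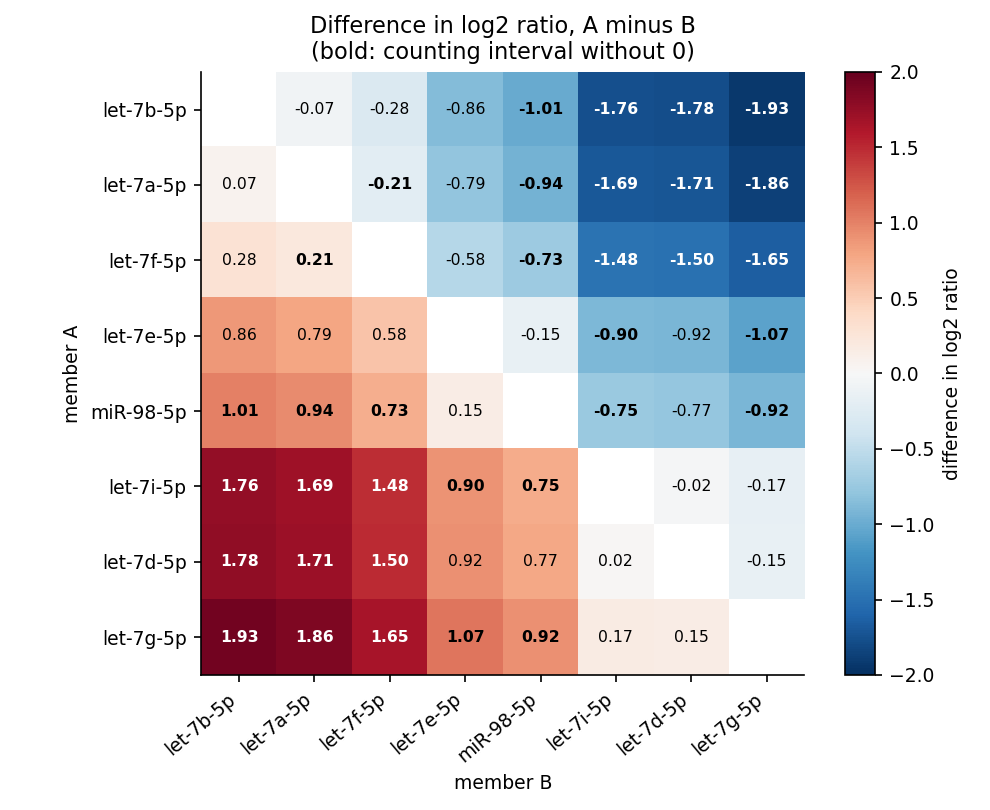
Difference in log2 ratio (UCA1-MS2 over control pulldown) between each pair of the 8 members with counts in both libraries, row minus column, on a color scale from -2 to 2; bold values have a counting interval without 0. let-7g-5p, let-7d-5p and let-7i-5p form one block with small differences, let-7b-5p, let-7a-5p and let-7f-5p another, and let-7e-5p and miR-98-5p lie between.

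The ratios are set beside sequence and locus here, and whether either has a part in them was not tested. The members with G12U, let-7g-5p and let-7i-5p, had the nearly equal ratios of 1.52 and 1.35. let-7d-5p, which has the same base as let-7a-5p at this position, had 1.37, with a wide interval of 0.854 to 2.14. The number of G and C bases was 8 in let-7g-5p, 9 in let-7i-5p and 9 in let-7d-5p, and it was 8 in let-7a-5p, 7 in let-7f-5p and 10 in let-7b-5p. let-7d-5p is made from the same chromosome 9 cluster as parts of let-7a-5p and let-7f-5p. It was favored over let-7a-5p in the UCA1-MS2 pulldown by a factor of 3.27 (2.02 to 5.16) and over let-7f-5p by 2.82 (1.74 to 4.45). miR-98-5p, whose hairpin lies 850 bases from MIRLET7F2, was favored over let-7f-5p by 1.66 (1.01 to 2.62). Since counts of let-7a-5p and let-7f-5p cannot be divided among their hairpins, these factors are not those of a single locus.

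Of 6 comparisons of let-7a-5p or let-7e-5p with a neighbor from another family at a locus encoding it, the member was favored in the UCA1-MS2 pulldown beyond counting error in 3. Among all 4005 pairs of miRNAs with counts in both libraries, 67.5% had an interval without 1, in either direction, so such differences are not particular to these loci. Counts of let-7a-5p come from 3 hairpins, so its comparisons are not those of a single locus. miR-100-5p, encoded with let-7a-2 in MIR100HG and the most counted miRNA of the control pulldown, had 21067 counts there and 949 with UCA1-MS2, and let-7a-5p was favored over it by a factor of 2.57 (2.30 to 2.88). let-7e-5p was favored over miR-99b-5p (47 and 861 counts), whose hairpin is 104 bases away, by 3.66 (1.94 to 6.66). Over miR-125a-5p (10 and 120 counts) it was favored by 2.40, with an interval that barely left out 1 (1.002 to 6.05). In the other 3 the interval held 1, with factors of 1.62 (0.849 to 3.48) for let-7a-5p over miR-125b-5p, 0.597 (0.324 to 1.19) for let-7a-5p over miR-125b-1-3p and 0.929 (0.408 to 2.16) for let-7e-5p over miR-99b-3p. miR-99a-5p, the neighbor of let-7c, had 29 and 23 counts, whereas let-7c-5p had 0 and 16. Without counts in the UCA1-MS2 pulldown, let-7c-5p did not enter the 6 comparisons. Of the 13 neighbor miRNAs searched for, 7 had counts in both libraries and 6 were listed at 0 in both, miR-4763-5p and miR-4763-3p next to let-7b among them.

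Opposite arms, which are usually discarded when the guide strand is loaded, were mostly listed at 0, as were most miRNA names. Of 11 searched for, 10 were listed at 0 in both libraries. let-7d-3p had 46 counts in the control pulldown, 0.622 times the 74 counts of let-7d-5p. In the UCA1-MS2 pulldown let-7d-3p was listed at 0, which allows at most 0.321 times the 28 counts of let-7d-5p, and relative to the miRNA counts it was at most 0.709 times as high as in the control pulldown. Both limits carry no counting error, and no direction is read from them.

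Set against all 90 miRNAs with counts in both libraries, the members lay in the lower and middle part of the range. The log2 ratios of the 8 members had a median of -0.39 and ran from -1.33 to 0.61, while those of the 90 had a median of 0.38, quartiles of -0.79 and 1.42 and a full range from -2.62 to 5.55. A lower ratio than that of let-7b-5p was found for 11 of the 90, than that of let-7a-5p for 13 and than that of let-7f-5p for 17, but a lower ratio than that of let-7g-5p was found for 53. let-7i-5p, with a lower ratio in 46 of the 90, lay close to the median. Of 50 other miRNAs with at least 100 counts over both libraries, those with the ratio nearest to the family's -0.48 were miR-4488 (322 and 1657 counts, -0.51), miR-1307-3p (43 and 213 counts, -0.45) and miR-30c-5p (74 and 365 counts, -0.45), a likeness over 2 libraries only.

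**Figure D5:**
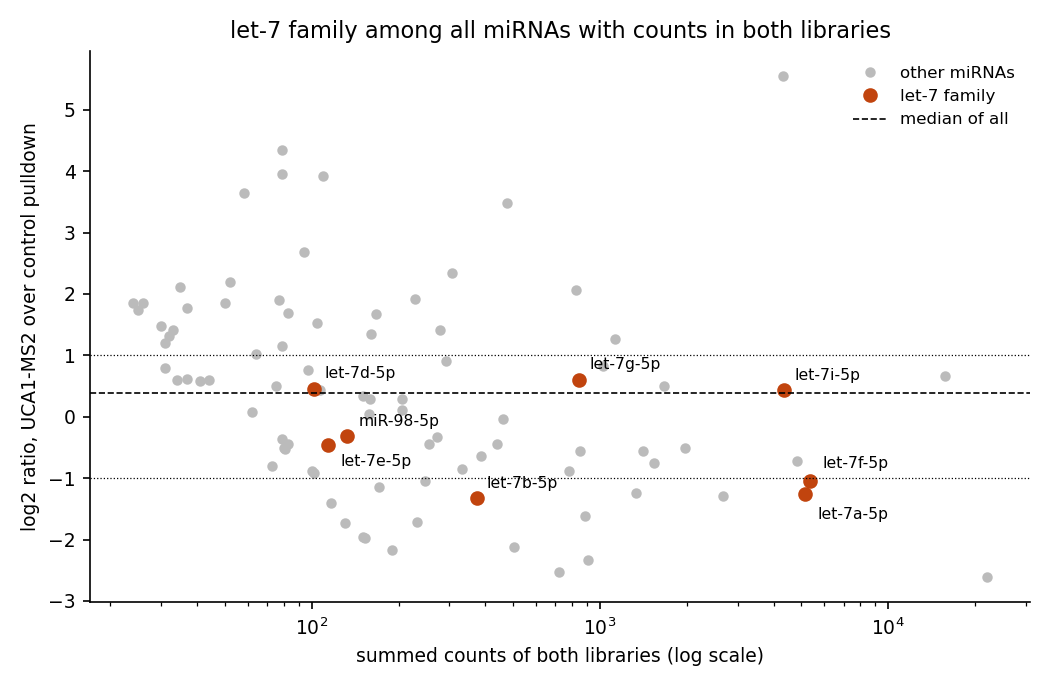
Log2 ratio (UCA1-MS2 over control pulldown, scaled to the miRNA counts) against the summed counts of both libraries (log scale) for the 90 miRNAs with counts in both, with the let-7 family in orange; the dashed line is the median of 0.38 and dotted lines mark 2-fold. let-7i-5p, let-7g-5p and let-7d-5p lie near the median, and let-7a-5p, let-7f-5p and let-7b-5p lie below the lower dotted line.

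UCA1 was searched for the letters that pair with the let-7 seed. CTACCTC, the reverse complement of bases 2 to 8, was found in 0 of the 36 UCA1 transcripts of GENCODE release 29 (532 to 2687 bases), and TACCTC, the complement of bases 2 to 7 and contained in the longer motif, was also found in 0 of 36. Only the transcript strand was searched. Among 1202 other annotated long noncoding transcripts within 10% of the length of the 1444-base UCA1 isoform, 9.23% held CTACCTC and 22.4% held TACCTC. Most of these transcripts thus lacked the motifs too, and the 36 UCA1 transcripts, isoforms of the same gene, are not independent. The letters are not in the annotated UCA1 transcripts, which says nothing of pairing by other bases. The cloned and tagged UCA1 sequence was not used here.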

How the data were processed

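Small RNA was sequenced from 1 UCA1-MS2 pulldown and 1 control pulldown of MDA231 derivatives. The authors deposited, per library, whole-number counts of reads per mature miRNA name, and RPM values, which are these counts divided by 1 total per library (worked out here from both). The submitters' processing notes name bcl2fastq and BWA; versions, parameters, miRNA release, genome build and use of strand are not given in the sources used here, so the handling of reads that match several let-7 members is not known. A deposited table of the authors' own log2 fold changes and p-values was not used.

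Shares of the miRNA counts have exact Clopper-Pearson intervals (95%). Ratios between libraries have exact intervals from the binomial split of the reads, and ratios between members have exact conditional odds-ratio intervals (scipy 1.17.1, Python 3.11.15). Molecular identifiers are not mentioned in the sources used here, and intervals cover counting error only. With 1 library per condition, the quasi-likelihood test of edgeR lacked residual degrees of freedom and no p-value is given. All miRNAs with at least 10 counts in one library entered, a listed 0 was taken as up to 9 counts, and a miRNA was counted as higher or lower at 2-fold or more. The interval code was tested on simulated data. Alternatives were the authors' library totals, TMM factors (edgeR 4.0.16), DESeq2 1.42.0 size factors (R 4.3.3), totals that leave out miR-100-5p and miR-21-5p, a pseudocount of 0.5, a 4-fold threshold, a minimum of 50 counts and, chosen after seeing the data, totals without miR-7641. Named are the 9 members, their opposite arms, miRNAs of the same loci or seed, the 3 miRNAs nearest in ratio and the most counted miRNAs; other miRNAs are cell type markers. Members and lists were chosen with earlier results of these data known.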

Additional observations from a re-analysis of the deposited data

How the results depend on the processing

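No paired analysis was possible because UCA1-MS2 and control have 1 library each; no replicate could be left out. Scaling shifted all log2 ratios alike, by -1.80 with the authors' library totals, -0.18 with TMM factors, -0.38 with DESeq2 size factors and -0.35 without miR-100-5p and miR-21-5p, so the log2 ratio of the summed family was -2.28, -0.66, -0.87 and -0.84 in this order and lower in the UCA1-MS2 pulldown each time. Without miR-7641, a setting chosen after seeing the data, all log2 ratios shifted by 0.31, that of the family to -0.17, and 1 member in place of 3 was at least 2-fold lower. With the authors' totals let-7g-5p and let-7i-5p changed sign (-1.19 and -1.36). Without miR-100-5p and miR-21-5p they were 0.25 and 0.08, with DESeq2 size factors 0.22 and 0.05, and with TMM factors 0.43 and 0.26. Without miR-7641 they were 0.92 and 0.75. The limit of let-7c-5p became -3.14 with 0.5 counts in place of its 0, by construction. Members at least 2-fold lower numbered 3 with TMM factors, DESeq2 size factors and totals without miR-100-5p and miR-21-5p, 8 with the authors' totals and 0 at 4-fold. Of all miRNAs, 42 were higher and 19 lower (68.9% of calls higher); with the authors' totals these were 11 and 86 (11.3%), with DESeq2 size factors 36 and 32 (52.9%), and without miR-100-5p and miR-21-5p 36 and 31 (53.7%). At 4-fold they were 23 and 5, and with at least 50 counts, which left 86 miRNAs, 24 and 19. With members 1 substitution apart counted together, 1 group in place of 3 members was lower in share of the family. The added pseudocount changed no count of calls. Depth limits let-7c-5p, let-7d-5p, let-7e-5p and miR-98-5p, each with fewer than 30 counts in the UCA1-MS2 pulldown.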
